A study of Mus musculus with 6 samples.

Results

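The genes described here are 34 macrophage and monocyte genes, picked by symbol from a list of members out of the 34745 genes of the gene table. Each symbol matched 1 row, and each of the 34 passed the filter on low counts that left 15198 genes for testing. RNA came from the left ventricle of wild-type mice, males of the inbred strain C57BL/6 whose age the labels give as 8 weeks. Transverse aortic constriction (TAC) narrows the aortic arch with a ligature, which raises the pressure that the left ventricle works against, and the sham operation leaves the ligature out. The tissue was taken 6 weeks after surgery. 3 libraries carry the label TAC and 3 the label Sham, and no label says whether each came from a separate mouse, so a p-value here reflects how much these libraries vary, which may be technical.

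Macrophages are phagocytes that engulf dying cells and debris, and they are the main leukocytes of the healthy heart. Resident cardiac macrophages are seeded in part before birth and renew themselves in the tissue, whereas monocytes enter from the blood through the receptor encoded by Ccr2 and can become macrophages there. In mice the resident cells are commonly recognised by Lyve1, Timd4 and Folr2, together with the scavenger receptors Cd163 and Mrc1. Pan-myeloid genes such as Csf1r, Lyz2, Tyrobp and Fcer1g are shared by resident and recruited cells.

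Counts over genes summed to between 17399510 and 28401399 per library, and the 34 genes together took 7332 to 21251 of them. Levels are CPM, counts divided by the TMM-scaled size of the library, and tests are edgeR's quasi-likelihood test with Benjamini-Hochberg adjustment over the 15198 genes. The cardiac stress genes Nppa and Acta1 went against the labels. Nppa, the gene of atrial natriuretic peptide, stood at 64.3 to 95.2 CPM in the TAC-labelled libraries and at 595 to 1895 CPM in the Sham-labelled ones. Acta1, the skeletal alpha-actin gene, stood at 121 to 642 and at 3063 to 5033 CPM. Pressure overload is known to raise both genes, so the groups are called by their labels throughout, and every direction below is that of the labels. Of the 15198 genes tested, the library labelled TAC 3 had the lowest level for 3481 and Sham 2 for 3464. Of the 34 macrophage and monocyte genes, TAC 3 had the lowest level for 28 and Sham 2 for 0.

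All 34 genes had a negative estimate, lower under the TAC label, beside 49.1% of all genes tested, and Mpeg1 passed the test. The median log2 difference, labelled TAC minus labelled Sham, was -0.63 over the 34 genes and 0.01 over all genes tested. In the direction of lower values under the TAC label, 1 of the 34 passed an adjusted p of 0.05, beside 1.11% of all genes tested, and 15 of the 34 had an unadjusted p under 0.05, beside 11.4%. The 34 genes summed to 535, 554 and 373 CPM in the TAC-labelled libraries 1, 2 and 3. They summed to 710, 751 and 699.7 CPM in the Sham-labelled libraries 1, 2 and 3. Without TAC 3, 33 of the 34 estimates were negative and the median was -0.45. In whole tissue, fewer macrophages and less of these RNAs per macrophage cannot be told apart.

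**Figure D1:**
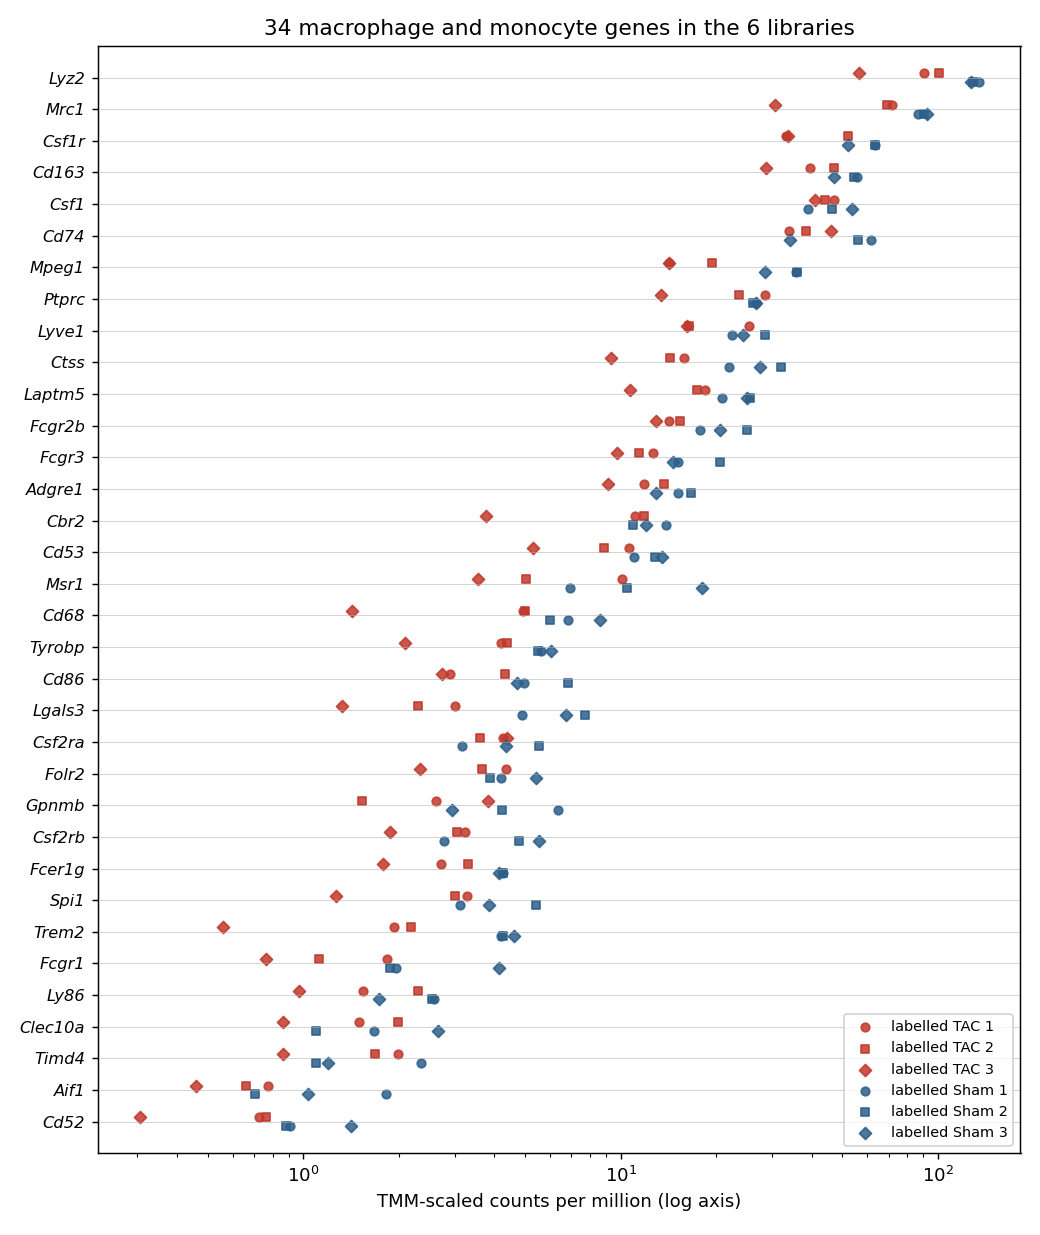
TMM-scaled CPM (log axis) of the 34 genes, sorted by mean level, with 1 point per library (red, labelled TAC; blue, labelled Sham; circle, square and diamond for libraries 1, 2 and 3). In 17 of the 34 rows all blue points lie to the right of all red ones, and the red diamond, the library labelled TAC 3, is the leftmost point for 28 of the 34 genes.

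The groups did not overlap for 17 of the 34 genes, each lower in all 3 libraries labelled TAC than in any labelled Sham, beside 13.6% of all genes tested in that direction and 27.0% in either. No gene of the 34 was separated in the other direction. When 1 library was left out at a time, the count lay between 18 and 23, beside 16.5% to 21.4% of all genes tested. Without TAC 3 it was 18, beside 20.0%. Each gene's highest value fell in a library labelled Sham for 33 of the 34 genes, and for Ptprc it fell in TAC 1.

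Per unit of length, these genes differed widely in level. Lyz2, which encodes the bactericidal enzyme lysozyme M, led with 84.4 FPKM over the 6 libraries (range 44.3 to 107). Cd74, the invariant chain that accompanies MHC class II molecules, followed with 22.4 FPKM (range 16.3 to 31.0), and the ranges of the 2 genes did not overlap. The next genes in the order, Ctss (11.3 FPKM), Mrc1 (9.91), Lyve1 (8.54), Csf1r (8.49), Tyrobp (8.26) and Cd163 (6.54), had overlapping ranges. At the lower end, Trem2 (0.489 FPKM), Gpnmb (0.481), Aif1 (0.285) and Clec10a (0.282) rested on few reads. The smallest counts per library were 6 for Cd52, 9 for Aif1, 11 for Trem2, 15 for Fcgr1, and 17 each for Timd4 and Clec10a.

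Of the 13 genes of leukocyte and macrophage identity, 1 passed the test and the median log2 difference was -0.71. Mpeg1 encodes perforin-2, a pore-forming protein that macrophages use against engulfed bacteria, and lies on chromosome 19 at 12460779 to 12465284 (GRCm38). Its level was 14.2, 19.4 and 14.2 CPM in the TAC-labelled libraries 1, 2 and 3. In those labelled Sham 1, 2 and 3 it was 35.7, 35.9 and 28.6 CPM. The groups were well apart, and the mean was 15.9 ± 3.02 CPM against 33.4 ± 4.15 CPM (SD, n = 3). The log2 difference of -1.07 (SE 0.17) is a 2.10-fold higher level in the libraries labelled Sham, with adjusted p = 0.0382 in edgeR. The call was lost when any 1 of the 6 libraries was left out, with log2 differences from -1.23 to -0.99 and adjusted p from 0.0504 without Sham 1 to 0.117 without TAC 1. With the replicate number as a block the adjusted p was 0.0738.

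Ctss, the gene of the lysosomal protease cathepsin S, lies on chromosome 3 at 95526786 to 95556403. It stood at 15.9, 14.4 and 9.36 CPM in the TAC-labelled libraries 1, 2 and 3 and at 21.97, 32.0 and 27.5 CPM in the Sham-labelled libraries 1, 2 and 3. The groups did not overlap, and the estimate was 2.06-fold (log2 difference -1.04, SE 0.22), but the adjusted p of 0.0672 missed the threshold. DESeq2 called it (adjusted p = 0.00140). Lyz2 had 90.5, 101 and 56.6 CPM under the TAC label and 134, 129 and 127 CPM under the Sham label. Its values were nearly level across the libraries labelled Sham and spread in those labelled TAC, with TAC 3 lowest (log2 difference -0.65, SE 0.20, adjusted p = 0.133). Laptm5, a lysosomal membrane protein of blood cells, had 18.4, 17.5 and 10.7 CPM against 20.9, 25.6 and 25.1 CPM. Here too the groups did not overlap (log2 difference -0.62, SE 0.21, adjusted p = 0.163).

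The other 9 identity genes did not pass the test, with adjusted p from 0.229 to 0.557. Their log2 differences ran from -0.28 for Ptprc to -0.92 for Msr1. Ptprc encodes CD45, the phosphatase of all leukocytes, and had 28.4, 23.6 and 13.4 CPM in the TAC-labelled libraries against 26.8, 26.2 and 26.7 CPM in the Sham-labelled ones. Thus TAC 1 lay above every library labelled Sham, TAC 2 slightly below and TAC 3 far below. Cd68, the macrosialin of macrophage lysosomes, had 4.93, 4.99 and 1.42 CPM against 6.84, 6.01 and 8.64 CPM (log2 difference -0.91, SE 0.42). Adgre1, which encodes the macrophage surface protein F4/80, differed less, with a mean of 11.6 ± 2.34 against 15.0 ± 1.85 CPM (SD, n = 3; log2 difference -0.37, SE 0.18). Spi1, the gene of the transcription factor PU.1 that myeloid cells depend on, had a log2 difference of -0.71 (SE 0.37) with overlapping groups. Cd53, a tetraspanin of leukocytes, Cd52, a small leukocyte surface glycoprotein, Aif1, an actin-binding protein of macrophages, Ly86, the partner of the Toll-like protein RP105, and the scavenger receptor gene Msr1 had log2 differences of -0.59, -0.82, -0.89, -0.52 and -0.92.

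Of the 3 lipid and phagocytosis genes, Lgals3 and Trem2 had the largest estimates of all 34 genes, and none of the 3 passed. Lgals3 encodes galectin-3, a carbohydrate-binding protein abundant in activated macrophages and also made by other cells, and lies on chromosome 14 at 47367751 to 47386160. Its level was 2.999, 2.29 and 1.32 CPM in the TAC-labelled libraries 1, 2 and 3. It was 4.88, 7.74 and 6.74 CPM in the Sham-labelled libraries 1, 2 and 3. The groups did not overlap, and the estimate was 2.92-fold (log2 difference -1.55, SE 0.32, adjusted p = 0.0619). Lgals3 passed with DESeq2 (adjusted p = 0.000648), with unscaled totals (0.0461), without the low-count filter (0.0328) and with limma (0.0486 and 0.0423).

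Trem2 encodes a lipid-sensing receptor that signals through the adaptor Tyrobp, and lies on chromosome 17 at 48346401 to 48354147. It had 1.94, 2.19 and 0.560 CPM in the TAC-labelled libraries and 4.21, 4.28 and 4.62 CPM in the Sham-labelled ones. The 3 Sham-labelled values lay close together, each above the highest TAC-labelled value, and TAC 3 was lowest on 11 reads. The log2 difference was -1.48 (SE 0.42, adjusted p = 0.116), and -1.08 without TAC 3. Gpnmb, a transmembrane glycoprotein of lipid-laden macrophages, did not follow that order, since TAC 3 was its highest TAC-labelled library. Its levels were 2.61, 1.53 and 3.81 CPM under the TAC label and 6.37, 4.24 and 2.93 CPM under the Sham label (log2 difference -0.77, SE 0.39, adjusted p = 0.308).

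**Figure D2:**
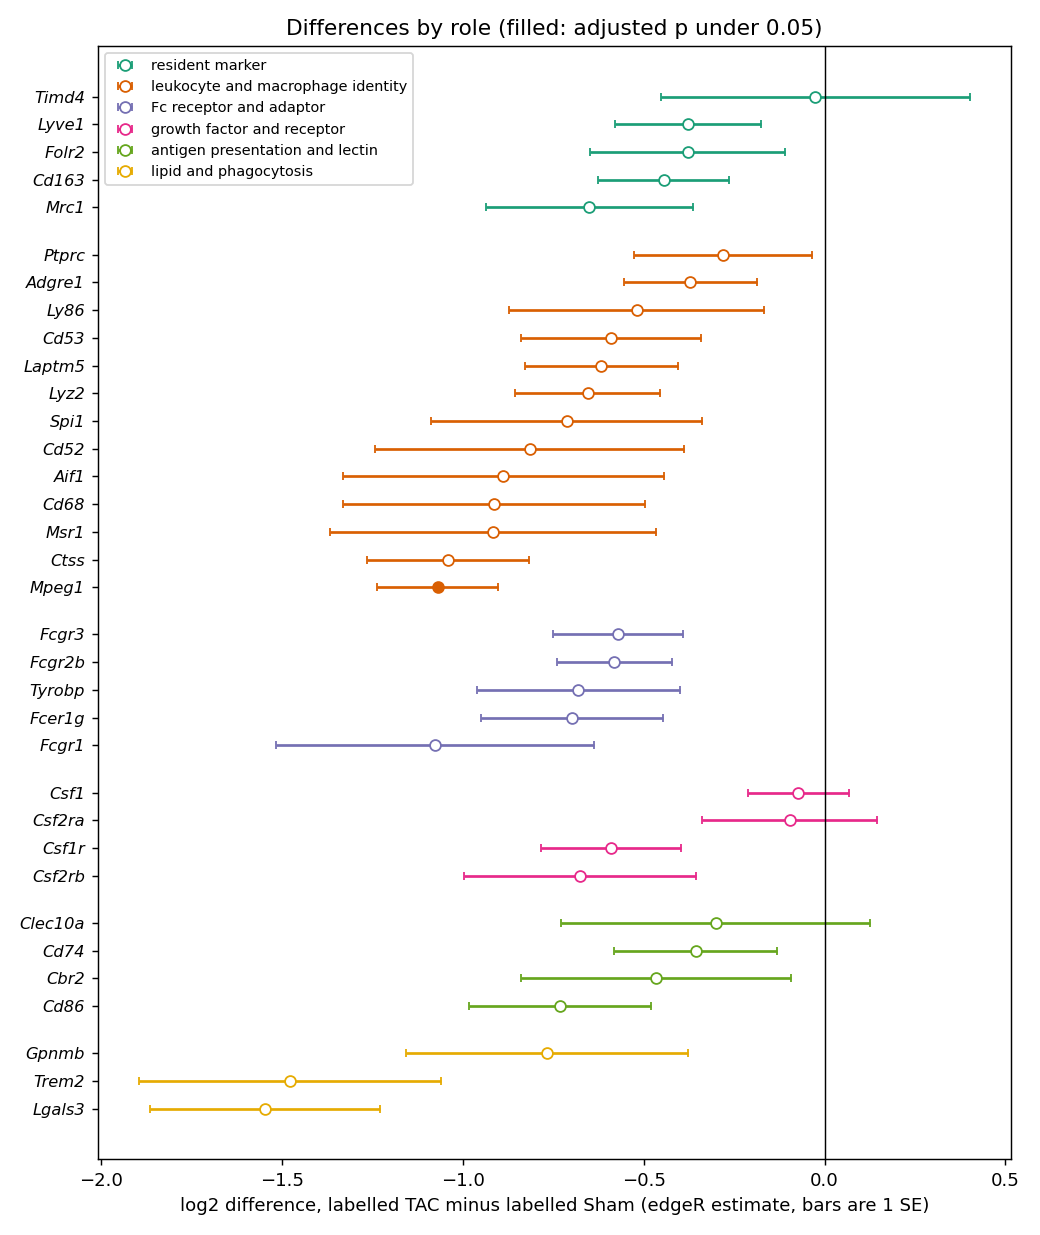
Log2 difference of each gene, labelled TAC minus labelled Sham, as estimated by edgeR with bars of 1 SE, grouped and coloured by role. All 34 points lie left of 0, the Mpeg1 point is filled because it passed the test, and the lowest estimates are those of Lgals3 (-1.55) and Trem2 (-1.48).

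All 5 Fc receptor and adaptor genes were separated between the labelled groups, beside 13.6% of all genes tested in that direction. None of the 5 passed the test (median log2 difference -0.68). Fc receptors bind the constant part of antibodies. Fcgr2b, which encodes the inhibitory receptor, had 14.2, 15.4 and 12.9 CPM in the TAC-labelled libraries and 17.9, 25.1 and 20.6 CPM in the Sham-labelled ones (log2 difference -0.58, SE 0.16, adjusted p = 0.109). Fcgr3, which encodes an activating receptor, had 12.7, 11.5 and 9.77 CPM against 15.2, 20.5 and 14.6 CPM (log2 difference -0.57, SE 0.18, adjusted p = 0.138). The activating and the inhibitory receptor gene thus had nearly the same estimate. They lie near each other on chromosome 1, at 170958617 to 170976547 and 171051174 to 171064935. Their extracellular domains are very similar in sequence, and no source used here says how shared reads were assigned, so the 2 values may not be independent.

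Fcgr1, the high-affinity receptor gene, had the largest estimate of the 5 and the fewest reads, with 1.84, 1.12 and 0.763 CPM against 1.96, 1.87 and 4.13 CPM. Its 2 groups came within 0.1 CPM of each other between TAC 1 and Sham 2, and Sham 3 was far above the rest (log2 difference -1.08, SE 0.44). Fcer1g encodes the signalling chain that activating Fc receptors share, and had 2.71, 3.31 and 1.78 CPM against 4.26, 4.28 and 4.13 CPM (log2 difference -0.70, SE 0.25). Tyrobp, also called DAP12, encodes a related adaptor and had 4.21, 4.38 and 2.09 CPM against 5.60, 5.51 and 6.03 CPM (log2 difference -0.68, SE 0.28). In both adaptor genes the Sham-labelled values were nearly equal and TAC 3 was lowest.

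Among the growth factors and receptors, the ligand and its receptor had different estimates. Csf1 encodes macrophage colony-stimulating factor, which stromal and endothelial cells make, and had 47.2, 44.0 and 41.1 CPM in the TAC-labelled libraries and 38.9, 46.6 and 53.7 CPM in the Sham-labelled ones. The groups overlapped fully (log2 difference -0.07, SE 0.14, adjusted p = 0.807). Csf1r, the receptor for Csf1 on which macrophages depend for survival, had 33.2, 52.1 and 33.7 CPM against 63.3, 63.5 and 52.2 CPM. TAC 2 and Sham 3 differed by less than 0.1 CPM, so the groups were barely apart (log2 difference -0.59, SE 0.19, adjusted p = 0.150). The estimate for Csf2rb, the shared beta chain of the receptors for GM-CSF, IL-3 and IL-5, was -0.68 (SE 0.32), and that for the GM-CSF receptor alpha chain Csf2ra was -0.10 (SE 0.24), both with overlapping groups. Csf2rb has a close copy, Csf2rb2, so reads of the 2 genes may have been divided between them.

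Cd74, Cd86, Clec10a and Cbr2 did not pass the test (median log2 difference -0.41). Cd86, a costimulatory ligand for T cells, was separated, with 2.90, 4.33 and 2.75 CPM in the TAC-labelled libraries and 4.98, 6.82 and 4.73 CPM in the Sham-labelled ones (log2 difference -0.73, SE 0.25, adjusted p = 0.164). Cd74 had 34.01, 38.3 and 46.0 CPM against 61.5, 55.8 and 34.1 CPM, so that Sham 3 lay with the TAC-labelled libraries and TAC 3 was the highest of these. The estimates for the macrophage lectin gene Clec10a and the carbonyl reductase gene Cbr2 were -0.30 and -0.47, with overlapping groups.

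The 5 resident markers did not pass the test (0 in edgeR and in DESeq2), and their median log2 difference was -0.38. An unadjusted p under 0.05 was reached by 1, Cd163, beside 11.4% of all genes tested in that direction. Mrc1, the mannose receptor gene on chromosome 2 at 14229392 to 14332057, had 71.7, 69.2 and 30.7 CPM in the TAC-labelled libraries and 86.9, 90.3 and 92.2 CPM in the Sham-labelled ones. It was the resident marker whose groups did not overlap (log2 difference -0.65, SE 0.29, adjusted p = 0.245), and TAC 3 was far below TAC 1 and TAC 2. Cd163, the haemoglobin scavenger receptor gene on chromosome 6 at 124304656 to 124330527, had 39.5, 47.1 and 28.8 CPM against 55.7, 54.5 and 46.9 CPM. TAC 2 and Sham 3 met at the same level (log2 difference -0.45, SE 0.18, adjusted p = 0.217).

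Lyve1, a hyaluronan receptor gene of resident macrophages and lymphatic endothelium on chromosome 7 at 110850607 to 110862953, had 25.4, 16.4 and 16.2 CPM in the TAC-labelled libraries. It had 22.4, 28.6 and 24.4 CPM in the Sham-labelled ones, so TAC 1 lay within the Sham-labelled range (log2 difference -0.38, SE 0.20, adjusted p = 0.329). Folr2, the gene of folate receptor beta on chromosome 7 at 101839990 to 101845331, had 4.35, 3.67 and 2.34 CPM against 4.21, 3.89 and 5.43 CPM. Here TAC 1 lay above Sham 1 and Sham 2 (log2 difference -0.38, SE 0.27, adjusted p = 0.462). Timd4, a phosphatidylserine receptor gene for apoptotic cells on chromosome 11 at 46810800 to 46844332, had 1.98, 1.68 and 0.865 CPM against 2.35, 1.10 and 1.20 CPM. With 17 to 49 reads per library its groups overlapped (log2 difference -0.03, SE 0.43, adjusted p = 0.980), and its sign changed without TAC 3 (0.25) and without Sham 1 (0.40).

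The 17 pan-myeloid genes had a median log2 difference of -0.68. The groups did not overlap for 12 of them and for 1 of the 5 resident markers, each lower under the TAC label. Of all genes tested, 13.6% were separated in that direction, and 1 of 5 is near that share. Averaged as log2(CPM + 0.5), the pan-myeloid genes stood at 2.98, 3.01 and 2.32 in the TAC-labelled libraries 1, 2 and 3 and at 3.39, 3.45 and 3.44 in the Sham-labelled libraries 1, 2 and 3. The 3 Sham-labelled values were almost equal (3.43 ± 0.03, SD, n = 3), and the TAC-labelled ones were lower and more spread (2.77 ± 0.39). The resident markers averaged 3.96, 3.79 and 3.17 against 4.11, 3.99 and 4.01 on the same scale. Their 2 groups were separated by 0.03 between TAC 1 and Sham 2.

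**Figure D3:**
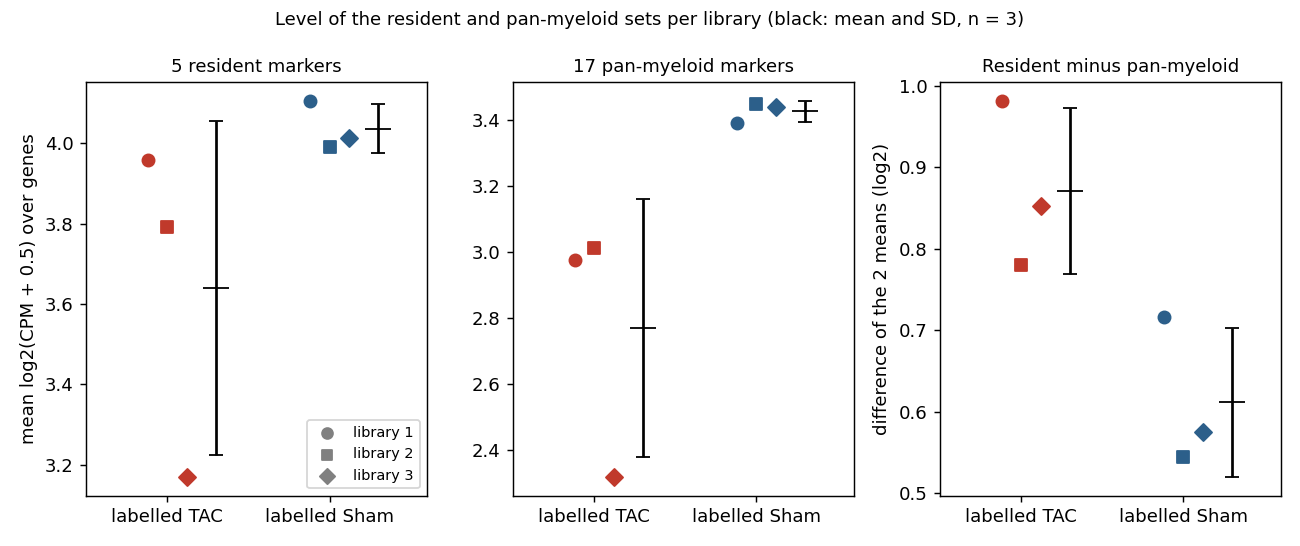
Mean log2(CPM + 0.5) per library of the 5 resident markers (left) and the 17 pan-myeloid genes (middle), and the difference of the 2 means (right), with 1 point per library and the mean and SD of 3 in black. TAC 3 is lowest in the left and middle panels, while in the right panel the TAC-labelled libraries (0.78 to 0.98) all lie above the Sham-labelled ones (0.54 to 0.72).

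The resident mean minus the pan-myeloid mean was 0.98, 0.78 and 0.85 in the TAC-labelled libraries and 0.72, 0.54 and 0.57 in the Sham-labelled ones, on the log2 scale. Relative to the pan-myeloid mean, the resident mean was thus higher in each library labelled TAC, TAC 3 included, than in any labelled Sham (0.87 ± 0.10 against 0.61 ± 0.09, SD, n = 3). The resident median lay above the pan-myeloid one in each of the 16 alternative settings, by 0.12 to 0.43. No test of this difference was made, because the genes were chosen with earlier results of these data known. Relative to Csf1r alone the groups overlapped for each of the 5 markers. The Mrc1 to Csf1r count ratio, for example, was 2.16, 1.33 and 0.911 in the TAC-labelled libraries and 1.37, 1.42 and 1.77 in the Sham-labelled ones. Gene by gene the 2 sets overlapped, with log2 differences from -0.65 to -0.03 for resident markers and from -1.08 to -0.28 for pan-myeloid genes. A further list of 15 tissue macrophage genes, described below, had a median of -0.66, beside -0.38 for the resident and -0.68 for the pan-myeloid set.

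**Figure D4:**
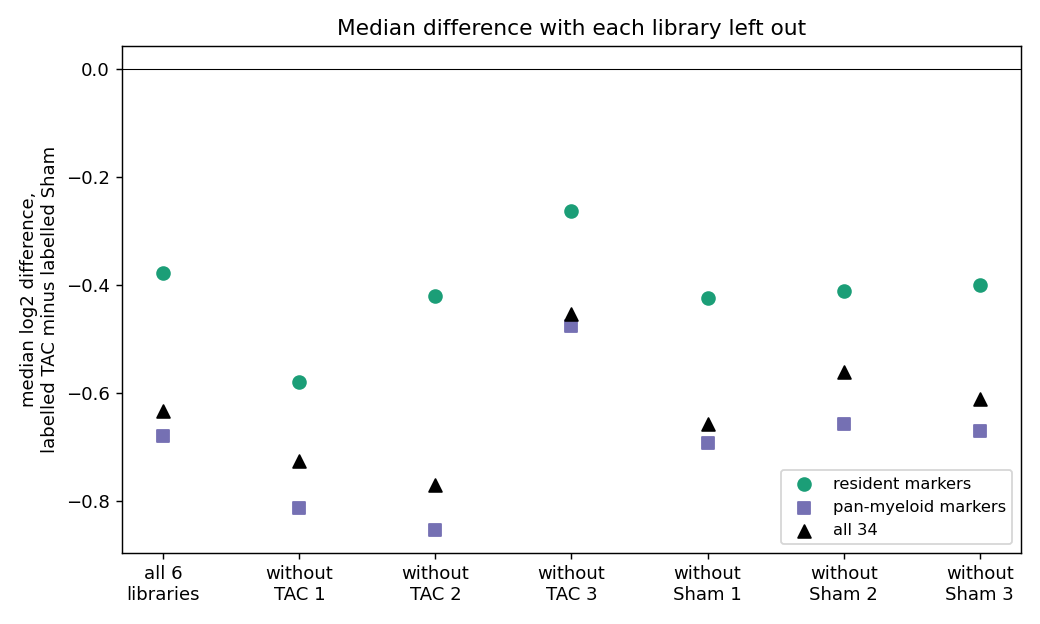
Median log2 difference, labelled TAC minus labelled Sham, of the 5 resident markers, the 17 pan-myeloid genes and all 34 genes, with all 6 libraries and with each left out in turn. Every median is below 0, the resident median is the highest of the 3 in each fit, and the medians are nearest to 0 without TAC 3 (-0.26, -0.48 and -0.45).

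Promoters of some of the genes are shown as a description only. Myeloid genes are known to be bound near their start by PU.1, the product of Spi1, whose binding sites often hold the letters GAGGAA. RefSeq promoter windows (GRCm38.p6, 250 bases before to 50 after the start) were found for 23 of the 34 genes, 26 windows in all. The letters GAGGAA, on either strand, stood in 13 of the 26, and in 28.3% of the 32851 windows of the table. Counted by gene, they stood in 12 of 23, and in 31.3% of the 27025 genes with a window. An E-box, CACGTG, stood in 0 of the 26 and in 7.15% of all windows. The 4 windows below belong to Mpeg1, the gene that passed, to Ctss and Trem2, which had large estimates, and to Mrc1, which had the most matches. They are printed 5′ to 3′ on the strand of the gene, with capitals for GAGGAA or its reverse complement.
Mpeg1 (chr19:12460520-12460819, plus strand): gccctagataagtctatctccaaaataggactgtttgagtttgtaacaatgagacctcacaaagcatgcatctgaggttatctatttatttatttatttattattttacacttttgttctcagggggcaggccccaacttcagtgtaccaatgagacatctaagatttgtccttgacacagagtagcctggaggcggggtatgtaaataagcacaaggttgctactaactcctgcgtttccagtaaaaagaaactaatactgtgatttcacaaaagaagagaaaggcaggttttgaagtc
Ctss (chr3:95526536-95526835, plus strand): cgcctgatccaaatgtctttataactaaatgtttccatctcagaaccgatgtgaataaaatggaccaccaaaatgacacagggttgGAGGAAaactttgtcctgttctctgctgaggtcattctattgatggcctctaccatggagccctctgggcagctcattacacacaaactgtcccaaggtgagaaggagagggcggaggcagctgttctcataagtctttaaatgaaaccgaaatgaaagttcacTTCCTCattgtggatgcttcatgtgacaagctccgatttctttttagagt
Trem2 (chr17:48346151-48346450, plus strand): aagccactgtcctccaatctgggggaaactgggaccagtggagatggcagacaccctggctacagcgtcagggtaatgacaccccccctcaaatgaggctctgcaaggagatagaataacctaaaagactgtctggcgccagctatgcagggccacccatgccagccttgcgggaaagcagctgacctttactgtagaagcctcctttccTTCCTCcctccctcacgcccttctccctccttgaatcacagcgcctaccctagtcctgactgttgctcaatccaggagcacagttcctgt
Mrc1 (chr2:14229164-14229463, plus strand): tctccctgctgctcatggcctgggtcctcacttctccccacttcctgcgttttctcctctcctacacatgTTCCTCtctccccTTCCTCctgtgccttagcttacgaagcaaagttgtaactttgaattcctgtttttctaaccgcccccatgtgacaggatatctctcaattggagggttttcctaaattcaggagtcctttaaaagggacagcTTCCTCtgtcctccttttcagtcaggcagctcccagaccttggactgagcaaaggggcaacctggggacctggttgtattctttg
The window of Mpeg1 held no match. That of Ctss held matches beginning at positions -164 and 1 from the start, that of Trem2 at -40, and that of Mrc1 at -180, -167 and -35. A match describes these letters and not binding, and a window without a match is not shown to lack binding. Whether PU.1 bears on these estimates was not tested. Among the genes without a match were Mpeg1, Lyz2 and Lgals3.

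**Figure D5:**
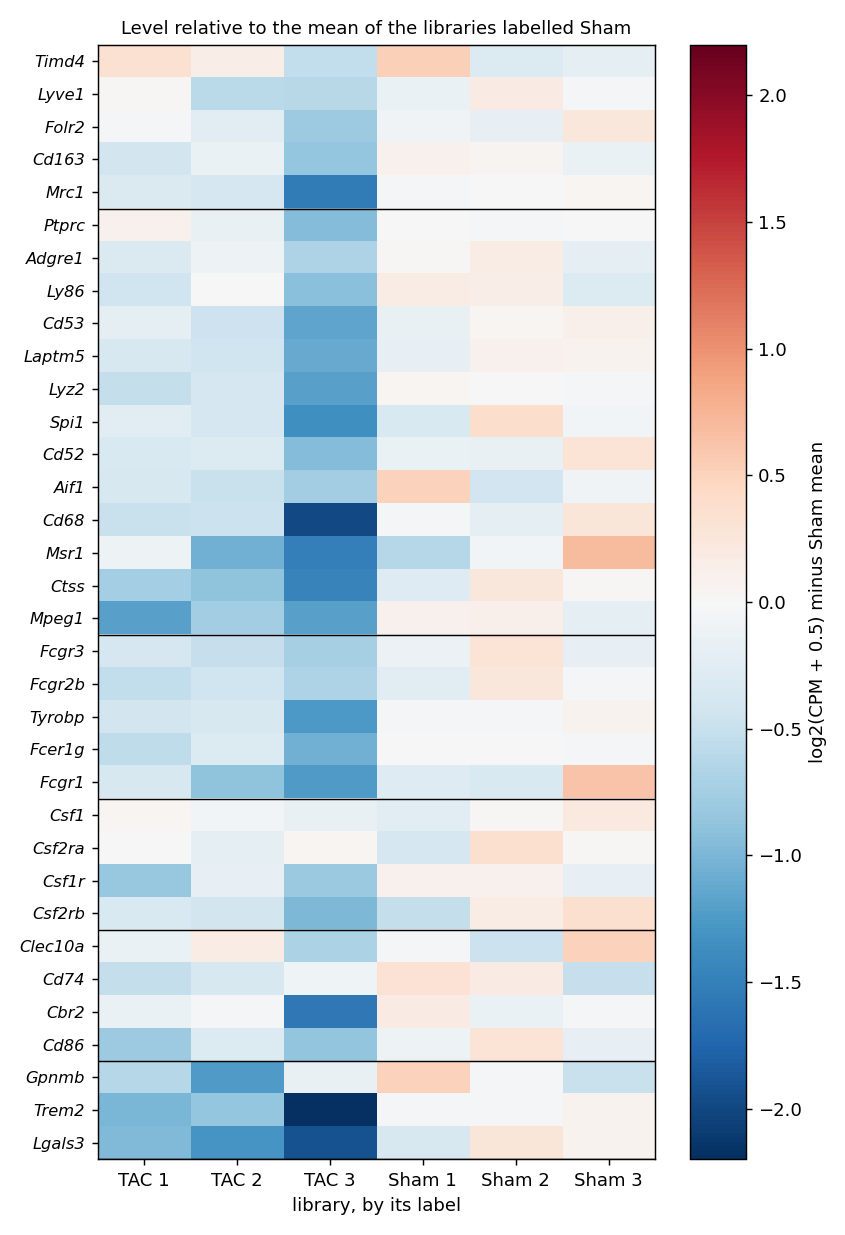
Level of each gene in each library, as log2(CPM + 0.5) minus the mean of the 3 libraries labelled Sham, with blue for lower and red for higher and lines between the role groups. The TAC 3 column is the darkest blue for 28 of the 34 genes, with Csf2ra, Cd74 and Gpnmb among those where it is not.

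Other tissue macrophage genes, a list of 15 that does not contain any of the 34, had a negative estimate in 15 of 15. Of all genes tested, 49.1% had a negative estimate. None passed (adjusted p from 0.0807 to 0.614), and the median log2 difference was -0.66. An unadjusted p under 0.05 was reached by 10, beside 11.4% of all genes tested in that direction. Hmox1, the haem oxygenase gene, had 8.27, 7.79 and 9.51 CPM in the TAC-labelled libraries and 11.6, 16.5 and 20.2 CPM in the Sham-labelled ones (log2 difference -0.92, SE 0.21). C1qc, a chain of complement C1q, which macrophages make, had 14.3, 14.4 and 8.49 CPM against 19.4, 23.6 and 23.7 CPM (log2 difference -0.84, SE 0.22). Ms4a7 had a log2 difference of -1.03 (SE 0.30). The list summed to 464, 471 and 345 CPM against 563, 607 and 584 CPM, so TAC 3 was lowest here as well.

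Of 14 monocyte and recruited macrophage genes in the table, 11 were tested, with a median log2 difference of -0.62. In the direction of lower values under the TAC label 2 of the 11 passed, beside 1.11% of all genes tested. The 2 were Spp1, the osteopontin gene, with 0.968, 1.32 and 1.22 CPM against 7.71, 17.1 and 38.3 CPM, and Fn1, the fibronectin gene, with 80.4, 118 and 70.3 CPM against 213, 348 and 298 CPM. Their adjusted p-values in edgeR were 0.0288 and 0.0292, both genes are also made by fibroblasts, and each call was lost without TAC 1 (0.111 for both). Spp1 also missed the threshold without TAC 2, TAC 3 or Sham 2 and with limma on log2(FPKM + 1) (log2 difference -1.87, adjusted p = 0.0639), and Fn1 without any library other than Sham 1. Nos2, the inducible nitric oxide synthase gene, had the opposite sign, with 11.9, 10.5 and 11.6 CPM against 7.32, 7.10 and 7.17 CPM (log2 difference 0.66, SE 0.13, adjusted p = 0.0594). Ccr2, which marks recruited cells, had 8.08, 4.02 and 2.09 CPM against 4.59, 8.91 and 7.01 CPM, with overlapping groups (log2 difference -0.53, SE 0.46). The blood monocyte genes Ly6c2 and Plac8 reached at most 0.526 and 0.543 CPM in any library.

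In the colony-stimulating factor pathway, Csf2 and Csf3, the genes of GM-CSF and G-CSF, had 0 counts in all 6 libraries. Of the 7 genes tested, Runx1, a transcription factor gene of blood cell development that is also active in injured heart muscle, passed in the same direction. Among all genes tested, 1.11% passed in that direction. Runx1 had 6.77, 4.13 and 5.80 CPM in the TAC-labelled libraries and 11.9, 15.8 and 16.4 CPM in the Sham-labelled ones (log2 difference -1.40, SE 0.22, adjusted p = 0.0382 in edgeR). The call was kept without Sham 1 (adjusted p = 0.0383) and lost without any other library, with adjusted p up to 0.112, and with the replicate block (0.104). With limma on log2(FPKM + 1) the log2 difference was -0.49. Cebpa, a myeloid transcription factor gene, had 2.42, 2.65 and 2.44 CPM against 4.16, 4.10 and 3.69 CPM (log2 difference -0.67, SE 0.19, adjusted p = 0.111). Il34, the second ligand of the Csf1r receptor, had a log2 difference of -0.87 (SE 0.31, adjusted p = 0.178) with overlapping groups.

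Markers of other leukocytes were few in these libraries. The 10 lymphocyte markers summed to 2.24 to 3.51 CPM in the TAC-labelled libraries and to 2.33 to 3.83 CPM in the Sham-labelled ones, with Cd3d at 0 in each library. Cd4 had the smallest p of them (log2 difference -0.87, SE 0.30, adjusted p = 0.164), and Ms4a1 had a log2 difference of 1.15 with overlapping groups. The 5 mast cell markers summed to 1.74 to 3.001 and 0.884 to 3.16 CPM, and Mcpt4 and Cpa3, the 2 tested, had log2 differences of 0.83 and 0.08. The 8 dendritic cell markers summed to 36.4 to 39.3 and 40.1 to 41.8 CPM, of which Zbtb46, which endothelium also expresses, made up 33.6 to 38.8 CPM. Itgax and Clec9a had log2 differences of -1.46 and -0.28 with overlapping groups.

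Neutrophil markers were uneven between the libraries. The 10 markers summed to 33.0, 10.4 and 2.90 CPM in the TAC-labelled libraries 1, 2 and 3 and to 21.8, 54.6 and 35.4 CPM in the Sham-labelled ones, with Mpo and Camp at 0 in each. Lcn2, the lipocalin-2 gene, which is not confined to neutrophils, made up most of the Sham-labelled sums (log2 difference -2.78, SE 0.61, adjusted p = 0.0699). S100a8 had 6.34, 1.43 and 0.254 CPM against 0.479, 0.566 and 0.761 CPM, and S100a9 6.39, 0.815 and 0.203 against 0.287, 0.424 and 0.923 CPM, both highest in TAC 1. TAC 1 was also the library with the highest Ptprc level, and the part of neutrophils in that level was not tested.

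Fibroblast and cardiomyocyte marker sums also differed between the labels. The 5 fibroblast markers summed to 685 to 712 CPM in the TAC-labelled libraries and to 1068 to 1417 CPM in the Sham-labelled ones. Their median log2 difference was -0.69 and none passed. All 5 had a negative estimate, beside 49.1% of all genes tested. All 5 had an unadjusted p under 0.05, beside 11.4% in that direction. In all 5 the groups did not overlap, beside 13.6% in that direction. The smallest p belonged to Col1a1 (-1.42, SE 0.32), Dcn (-0.69, SE 0.16) and Lum (-0.90, SE 0.27). The 5 cardiomyocyte markers went the other way, from 41220 to 57470 CPM against 29520 to 41072 CPM (median 0.52), with Tnni3 (0.63, SE 0.13), Ryr2 (0.52, SE 0.16) and Myh6 (0.70, SE 0.23) at the smallest p and none past the threshold. Endothelial markers summed to 884 to 967 and 800.1 to 950.1 CPM (median -0.09), with Kdr at 0.56 (SE 0.14), Vwf at -0.13 and Cdh5 at -0.10. The 5 lymphatic endothelial markers found in the table, of interest because lymphatic vessels also express Lyve1 and Mrc1, summed to 235 to 276 and 226 to 252 CPM. Prox1 alone made up 184 to 203 CPM of the TAC-labelled sums and 124 to 157 CPM of the Sham-labelled ones. The sums thus mostly follow Prox1. Pdpn (-1.56, SE 0.33), Prox1 (0.44, SE 0.12) and Flt4 (-0.39, SE 0.13) had the smallest p, and none passed. Reln and Mmrn1 stood at -0.74 and -0.35, so 4 of the 5 had a negative estimate and Prox1 a positive one. Flt4, Pdpn and Reln (3 of the 5) were separated, lower under the TAC label, beside 13.6% of all genes tested. Prox1 was separated in the other direction, beside 13.4%. Erythroid genes summed to 274 to 594 and 267 to 346 CPM, with Hba-a1, Hba-a2 and Hbb-bs at 0.55, 0.49 and 0.52 and overlapping groups. The part of any of these differences in the values of the macrophage genes was not tested.

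Of the 34 genes, 5 overlapped another gene of the table by position and 11 overlapped at least 1 transcript of the lncRNA table. At Ptprc, the gene A130071D04Rik and an lncRNA transcript of the same 354 counts lay within its span, beside 3108 counts of Ptprc. At Csf1r, the end of Hmgxb3 (3833 counts) covered 3.28% of the span of Csf1r (6451 counts). No source used here gives the strand setting of the counting, so reads of such pairs may have been assigned to either. Mpeg1, Lgals3, Trem2 and Lyz2 overlapped no other gene of the table.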

How the data were processed

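RNA-seq was run on mouse left ventricle, with 3 libraries labelled TAC and 3 labelled Sham. Per the labels' protocols, an miRNeasy kit with DNase gave the total RNA, and a VAHTS kit for total RNA gave the libraries. Named in the submitters' processing notes are HISAT2 2.0.4, StringTie 1.3.0 and the build GRCm38 (mm10), with no role stated. No source used here gives the counting program, its strand setting or the annotation. Per the file headers, the deposited gene table holds a count and an FPKM value per gene and library, and the deposited lncRNA table a count per transcript. The FPKM values were used as the authors deposited them.

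The members and lists were chosen with earlier results of these data known, so no p-value is given for a list. The main test was edgeR 4.0.16 quasi-likelihood in R 4.3.3, with TMM scaling and filterByExpr at a minimum count of 10, on the whole gene table. Adjusted p under 0.05 counted as passed, and each SE is the size of the log2 difference over the square root of F. CPM are counts relative to the TMM-scaled library size, and folds are edgeR estimates. Alternatives were DESeq2 1.42.0, limma 3.58.1 on log2(FPKM + 0.1) and log2(FPKM + 1), other scalings and filters, a robust fit, a replicate block and each library left out. Same-numbered libraries deviated from their group means with correlations of -0.14, -0.12 and -0.10, and differently numbered ones with correlations of 0.01 to 0.11. With only 3 libraries per group, each centred on its group mean, these values cannot show whether the replicate numbers pair the libraries. The test was checked on simulated data, which does not show how it behaves on these libraries. Within groups no pair of libraries matched to within sampling noise (chi-square per gene 16.6 or more).

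All 34 members are named. Members described with every library's value are the one that passed, the resident markers and the 8 others with the smallest p, plus further members where the pattern needed them, chosen after their values were seen. Of each other list, passing genes and up to 3 with the smallest p are named, except 1 gene that is not reported here, and Nos2, Ccr2, Ly6c2, Plac8, Csf2, Csf3, Zbtb46, Mpo, Camp, Cd3d, S100a8 and S100a9 were partly chosen after their values were seen. Itgam and Ccl21a, which the lists also held, did not match a symbol of the gene table.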

Additional observations from a re-analysis of the deposited data

Results flagged for a closer look

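In the lncRNA table, which the comparisons above do not use, a transcript of 705 bases within the end of Csf1r (chromosome 18, 61131281 to 61131985, GRCm38) had 81 counts in the library labelled TAC 1 and 2 or 3 counts in each of the other 5. It was picked out because its highest count fell in a library labelled TAC and was many times that of each of the other 5. That rule was written after this value was seen. Csf1r itself was not high in TAC 1, at 33.2 CPM. Hmgxb3 also overlaps part of Csf1r, and which gene the 81 counts came from was not tested.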

How the results depend on the processing

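The negative sign of the members' estimates held in 34 of 34 genes under each other scaling, test, filter and fit on all 6 libraries, except that 2 members were not tested at a minimum count of 30, which left 32 negative. With 1 library left out it held in 32 to 34. There Csf2ra ran from -0.28 to 0.13 (without Sham 2), Clec10a from -0.59 to 0.077 (without Sham 3), Csf1 from -0.19 to 0.044 (without Sham 3) and Timd4 from -0.27 to 0.40 (without Sham 1, and 0.25 without TAC 3). Over all 16 alternatives the median over members ran from -0.77 to -0.44, that of the resident markers from -0.58 to -0.26 and that of the pan-myeloid genes from -0.85 to -0.48.

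The number of members that passed was 6 with DESeq2 (Mpeg1, Lgals3, Ctss, Fcgr2b, Trem2 and Lyz2), 3 with library totals without TMM, 3 without the low-count filter, 2 with each limma fit and 0 with the replicate block. It was 0 with any library left out, where fewer libraries enter the fit. Of all genes tested, 7.44% passed in either direction with DESeq2, 2.22% without TMM and 1.96% without the low-count filter. That share was 1.88% and 1.85% with limma, 0.270% with the block and 0% to 2.57% with a library left out. An unadjusted p under 0.05 was reached by 9 to 17 members with a library left out and by 14 with the block. The share of all genes at that threshold was taken in the main fit alone (20.9%). Of all genes, those lower under the TAC label numbered 708 with DESeq2, 296 without TMM, 321 without the low-count filter, 40 with the replicate block and between 0 and 274 with a library left out, beside 168. Those higher numbered 456 with DESeq2, 111 without the filter, 1 with the block and between 0 and 123 with a library left out, beside 49. The replicate numbers are not said to mark shared mice. Unscaled totals shifted the median of all genes to -0.06. Members whose groups did not overlap, a count added after seeing the data, numbered 18 to 23 with a library left out. Cd52, Aif1, Clec10a and Timd4 had the fewest reads over the 6 libraries together. The cause of these shifts was not tested.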
